A study of Mus musculus with 2 samples.

Results

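The regions described here are 663 anti-Rbfox1 crosslink clusters that make up the ninth block of lines in the anti-Rbfox1 read list, out of 10137 clusters in that library. They were read from 2 iCLIP libraries of cultured mouse forebrain neurons at 14 days in vitro (DIV), 1 precipitated with anti-Rbfox1 antibodies and 1 with anti-Flag antibodies as control. In iCLIP, proteins are crosslinked to bound RNA by ultraviolet light, and each sequenced read starts next to the crosslinked base. Both cultures were crosslinked on ice at 254 nm with a dose of 500 mJ/cm2. Both were then opened for 1 min in a HEPES buffer with NaCl at 150 mM and Triton X-100 at 0.1%, and the cytoplasmic fraction was used. The labels name no genotype or other treatment, and no tagged protein for the control antibody. They do not say how many cultures or animals were pooled.

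A block is a run of lines within which the chromosome names stay in order, and a new block begins where that order starts again. The sources used here do not state the meaning of the blocks. The anti-Rbfox1 list fell into 11 blocks and the anti-Flag list into 7, and the sixth anti-Flag block, with 15 clusters, served as the control block. That match rests on 2 overlapping control reads. A cluster joined reads of 1 strand and block whose crosslink positions lay within 20 nt of the next. The ninth block held 2033 of 64820 anti-Rbfox1 reads (3.14%) and the control block 38 of 569 control reads (6.68%). With 1 library per antibody, Fisher's exact tests compare these libraries or blocks, not the antibodies in general, and intervals (exact, 95%) cover counting error only. Clusters of 1 library are not independent replicates. Antibody and library cannot be told apart.

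Rbfox1, expressed in neurons and muscle, binds RNA at the short element UGCAUG. Its nuclear forms are known as regulators of alternative splicing, and its cytoplasmic forms as regulators of the stability and translation of messenger RNAs, with binding in 3′ untranslated regions. The series asks where it binds in the cytoplasm. The positions are in the mm9 build of the mouse genome, so regions are given by chromosome, strand and position. Genes, transcript regions, marker genes of the labelled cell type and the sequence element were not analysed here, since only a GRCm38 annotation was at hand.

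Most ninth-block clusters were shallow. Of the 663 clusters, 399 held 2 reads (60.2%, 56.3 to 63.9) and 150 held 3, so that 549 (82.8%, 79.7 to 85.6) held 2 or 3 reads. A further 104 held 4 to 9 reads, and 10 held 10 or more. The mean was 3.07 reads per cluster (SD 3.84 over clusters), with a median of 2 and a highest value of 69. Without the 2 clusters with most reads the mean was 2.89. The reads were spread thinly, since 192 clusters were needed to hold 50% of them. The 10 clusters with most reads held 249 reads, 12.2% of the block (10.9 to 13.8).

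The width of the clusters was near that in the whole library. They covered 27789 nt in all. The median cluster spanned 40 nt from the first to the last base of its reads (interquartile range 34 to 50), and 8 nt between its outermost crosslinks, both ends counted (4 to 13). Over all anti-Rbfox1 clusters these medians were 42 and 10 nt. They were 37 and 6 nt in the first block, and 47 and 14 nt in the fourth. Crosslinks were spread over 1758 positions, of which 1580 (89.9%) held 1 read, 146 held 2, and 9 held 5 or more. Among the clusters of 2 reads, the crosslinks lay 1 nt apart in 93, and the median distance was 5 nt (interquartile range 2 to 10). Distances of 15 nt occurred in 26 such clusters and of 16 nt in 1, and 3 clusters in all exceeded 15 nt. That sharp edge lies inside the joining distance of 20 nt and was present in the deposited list. Read length had a median of 29 nt (interquartile range 24 to 37, range 12 to 63), and 8.36% of reads (7.19 to 9.65) were shorter than 20 nt, against 9.91% in the other anti-Rbfox1 blocks (9.67 to 10.1).

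By size the ninth block stood between the first and the third blocks on one side and the fourth and the sixth on the other. Clusters of 2 reads made up 77.1% of the first block and 76.3% of the third, against 25.6% of the fourth and 27.5% of the sixth. Each differed from the 60.2% of the ninth block, with adjusted p of 4.23e-18, 1.64e-07, 2.55e-67 and 6.17e-21 in that order (Fisher's exact tests, Benjamini-Hochberg adjustment over 30 tests, as for all adjusted p on block shares below unless another number of tests is given). Such a size was also found in 2 smaller blocks. Clusters of 2 reads were 65.9% of the 85 clusters of the seventh block (54.8 to 75.8) and 63.04% of the 46 of the eleventh (47.5 to 76.8), with means of 3.22 and 3.24 reads. Neither share differed detectably from the ninth at these numbers (adjusted Fisher's exact p = 0.727 and 0.852, over 9 tests added after the data were seen). Clusters of 10 or more reads were 1.51% of the ninth block (0.726 to 2.76) and 22.04% of the fourth (adjusted Fisher's exact p = 6.76e-51). The first block, at 1.82% (1.41 to 2.30), was not distinguishable from the ninth in this share (adjusted exact p = 0.802). The first and the third blocks held 0 reads that shared a leftmost base with another read on the same strand, whereas the ninth held 113 such reads on the plus strand and 202 on the minus strand. Reads per position and per cluster are therefore not counted alike in these blocks. With 1 read kept per leftmost and per rightmost base in every block, clusters of 2 reads were 72.6% of the ninth block and 52.6% of all other blocks (Fisher's exact p = 5.71e-20). That setting pooled the other blocks, so it does not compare the ninth block with the first or the third. The p-values against the first and the third rest on reads that were not counted alike.

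The ninth block was balanced between the strands. Its plus strand held 344 clusters (51.9%, 48.01 to 55.7) and 1011 reads, and its minus strand the other 319 clusters and 1022 reads. The fourth block was at 49.7% plus-strand clusters (adjusted Fisher's exact p = 0.362 against the ninth), with a difference of 2.19 percentage points. The first block stood at 65.7% (adjusted Fisher's exact p = 5.18e-11), the third at 74.5% (5.59e-13) and the sixth at 59.3% (0.0430). Strands were not counted alike in the first and the third blocks, which held 0 reads sharing a leftmost base on either strand. Reads sharing a rightmost base were 2017 plus and 369 minus in the first, and 256 plus and 12 minus in the third. The contrasts with these blocks were not repeated with 1 read per end. The seventh block was at 48.2% (37.3 to 59.3) and the eleventh at 45.7% (30.9 to 60.99), each with an adjusted exact p of 0.727 against the ninth over the same 9 added tests. Against all other anti-Rbfox1 blocks together, the share was 5.26 points lower (57.1%; adjusted Fisher's exact p = 0.0126). That difference depended on how reads sharing an end were counted. With 1 read kept per leftmost and per rightmost base, the shares were 50.9% and 50.4% (Fisher's exact p = 0.823).

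**Figure D1:**
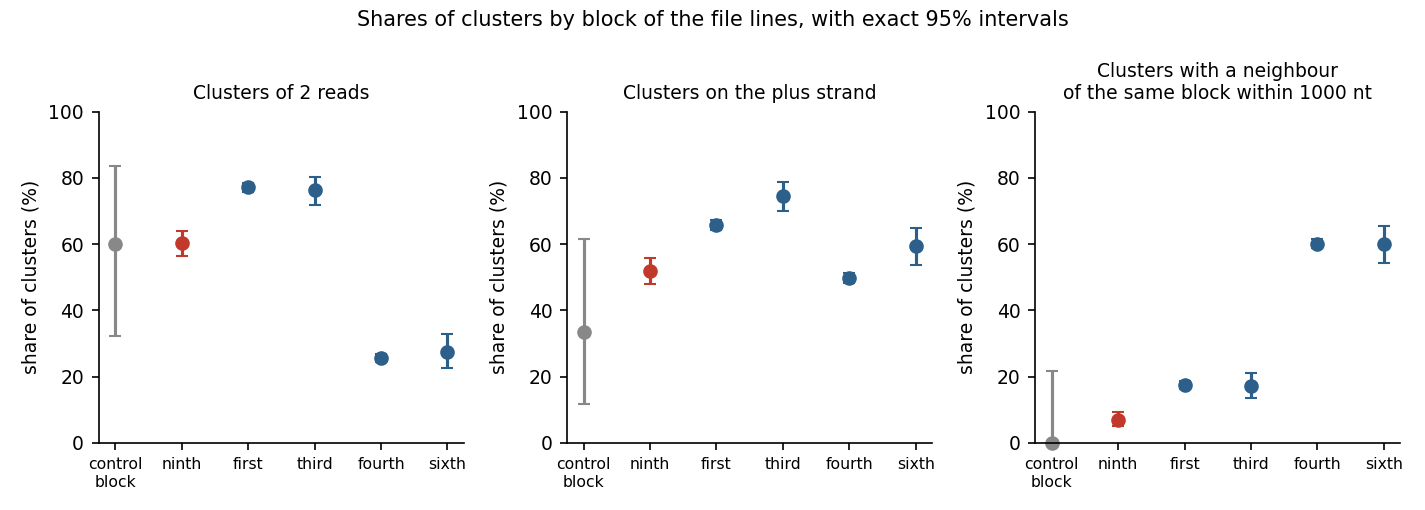
Share of clusters (%, vertical axis) in the control block and in 5 anti-Rbfox1 blocks (horizontal axis), for clusters of 2 reads, for plus-strand clusters, and for clusters with a neighbour of the same block and strand within 1000 nt. Points are shares and bars exact 95% intervals. The ninth block stands between the first and the third and the fourth and sixth blocks at 60.2% in clusters of 2 reads, near 50% in strand, and lowest of the 5 anti-Rbfox1 blocks in neighbours at 6.94%.

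The cluster with most reads was chr7:67128090-67128159 on the minus strand (mm9). It held 69 reads, 3.39% of the block (2.65 to 4.28), at 11 crosslink positions within 17 nt. Of these reads 26 shared position 67128148, and 52 lay within 2 nt of it. A cluster of 20 reads at 13 positions lay just upstream on the same strand, at chr7:67128253-67128292. Together they formed the stretch with most reads in the block, 89 reads over 203 nt. The first cluster also shared 45 bases with a cluster of 5 reads in the first block, whose nearest crosslink lay 6 nt upstream of its own. A fourth-block cluster of 59 reads had its midpoint 74 nt downstream. Reads from 3 blocks thus adjoined at this place.

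The next cluster, chr17:35374801-35374896 on the plus strand, had a different shape. Its 57 reads were at 28 positions over 67 nt, with 9 at the top position and 15 within 2 nt of it. At chr7:17502426-17502506, minus strand, 26 reads lay at 16 positions, with 5 at the top one. A fourth-block cluster of 149 reads followed 380.5 nt downstream of it. The 3 highest clusters of chromosome 7 held 115 of the 269 ninth-block reads on that chromosome.

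**Figure D2:**
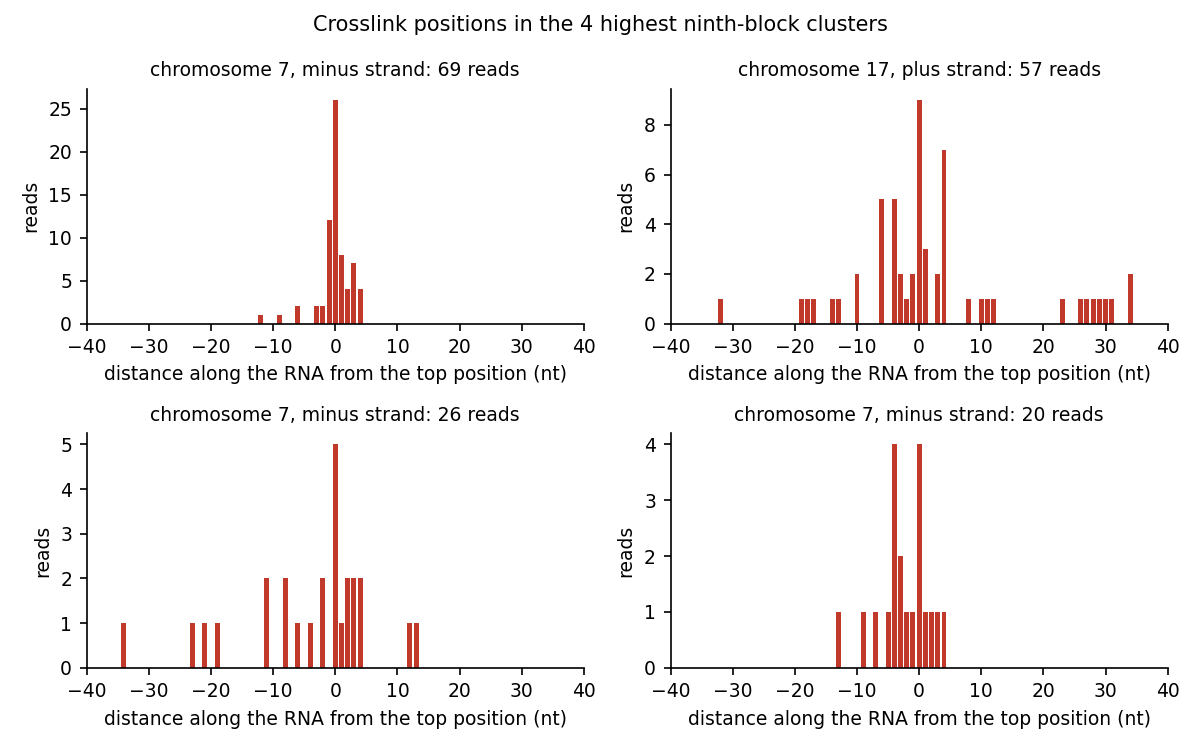
Reads (vertical axis) at each crosslink position of the 4 highest ninth-block clusters, by distance along the RNA from the position with most reads (horizontal axis, nt). In the chromosome 7 cluster of 69 reads, 26 sit on 1 position, whereas the chromosome 17 cluster of 57 reads is spread over 28 positions with at most 9 on any of them.

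The other 6 of the 10 highest clusters held 10 to 15 reads. Those of 15 reads were chr16:18622813-18622887 on the minus strand, with 10 positions, and chr19:10058675-10058740 on the plus strand, with 9. The cluster chr13:34166307-34166383, minus strand, held 14 reads at 11 positions, with at most 2 on any of them. At chr11:75570454-75570502, plus strand, 13 reads lay at 8 positions. The last, with 10 reads each, were chr18:31742853-31742907 on the minus strand and chr6:17615388-17615441 on the plus strand. In the latter, 4 positions held all reads, and 8 of the 10 lay within 2 nt of the top one. None of the 10 highest clusters overlapped any of the 569 control reads. This did not set them apart, since 3 of all 2033 ninth-block reads (0.148%) overlapped any control read. For the 38 reads of the control block alone, a count of 0 allows a share of up to 7.89%.

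Ninth-block clusters seldom had a companion from their own block. A same-strand neighbour of the block lay within 1000 nt, midpoint to midpoint, for 46 of 663 clusters (6.94%, 5.12 to 9.15). The share was 17.3% in the first block (adjusted Fisher's exact p = 9.73e-13), 17.0% in the third (1.23e-06) 60.1% in the fourth (1.19e-164) and 60.0% in the sixth (5.20e-69). The smaller blocks had low shares too, at 7.06% in the seventh (6 of 85, 2.63 to 14.7) and 8.70% in the eleventh (4 of 46, 2.42 to 20.8), with adjusted exact p of 1 and 0.727 against the ninth over the 9 added tests. The blocks hold different numbers of clusters, from 46 in the eleventh to 4982 in the fourth among those compared, and the part of that number in these shares was not tested.

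Joining clusters of the ninth block whose outer bases lay within 1000 nt gave 638 stretches. Of these 617 were single clusters, 17 held 2 clusters and 4 held 3. After the chromosome 7 pair and the single clusters on chromosomes 17 and 7 already described, the next by reads was chr19:10058675-10059444 on the plus strand, with 25 reads in 3 clusters. The fifth was chr13:98015731-98016565, also on the plus strand, with 17 reads in 3 clusters.

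Neighbours from the other blocks, which held 9474 clusters, were more frequent than neighbours from the block itself. For 137 of 663 clusters (20.7%, 17.6 to 23.9) a same-strand cluster of another anti-Rbfox1 block lay within 1000 nt. Over all clusters of the other blocks, 310 of 9474 (3.27%, 2.92 to 3.65) had a neighbour in a block other than their own (adjusted Fisher's exact p = 7.58e-58, over 5 tests on neighbours). These 5 tests were chosen after the data were seen. Being neighbours is mutual, so clusters whose neighbour lay in the ninth block are among the 310, and the groups compared are not independent. The same links also make up a larger share of a block with few clusters. The part of block size in these shares was not tested. On the opposite strand, 1 of the 663 clusters had a cluster of any block within 1000 nt.

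The neighbours came mainly from the fourth block, which held most of the deep clusters of the library. A fourth-block cluster on the same strand lay within 1000 nt of 123 ninth-block clusters (18.6%, 15.7 to 21.7), within 10000 nt of 285 (42.99%, 39.2 to 46.9) and within 100000 nt of 452 (68.2%, 64.5 to 71.7). Of first-block clusters, 24 of 3635 (0.660%, 0.423 to 0.981) had one within 1000 nt (adjusted Fisher's exact p = 1.97e-78 against the ninth). In contrast, 0 of 663 ninth-block clusters had a cluster of the third, the sixth or the eleventh block within 10000 nt, which allows up to 0.452% for each.

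The order along the RNA was nearly always the same. Within 1000 nt, the nearest fourth-block cluster lay downstream, toward the 3′ end of the RNA strand, of 123 out of 123 ninth-block clusters (100%, 97.05 to 100), at a median of 381 nt. Some of them shared a neighbour, and the 123 clusters faced 114 distinct fourth-block clusters. Counting each of these once, 114 of 114 lay downstream. Within 10000 nt it was 282 of 285 (98.9%, 96.95 to 99.8), and within 100000 nt 426 of 452 (94.2%, 91.7 to 96.2). The direction held for fourth-block clusters of at least 10 reads, at 68 of 68.

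**Figure D3:**
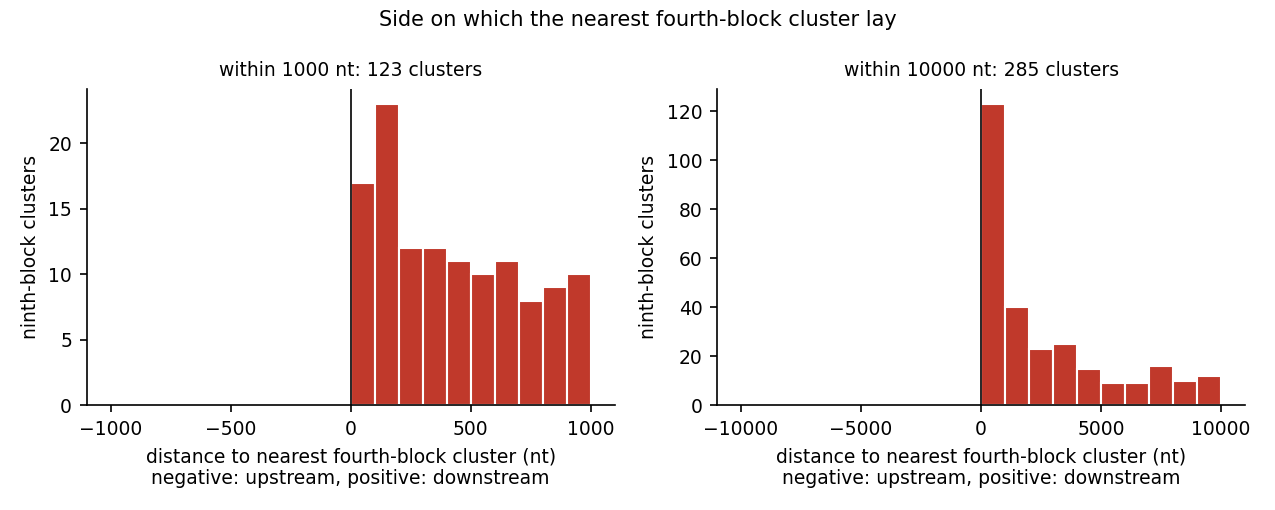
Number of ninth-block clusters (vertical axis) by the distance in nt along the RNA to the nearest same-strand fourth-block cluster (horizontal axis), in bins of 100 nt up to 1000 nt and of 1000 nt up to 10000 nt. Positive distances are downstream. All 123 clusters of the first panel and 282 of the 285 of the next lie right of the line at 0.

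The 3 exceptions within 10000 nt were small. They were chr19:46399211-46399250 (minus strand, 3 reads), chr11:68914554-68914572 (plus strand, 3 reads) and chr9:108242303-108242344 (plus strand, 2 reads). They were named with their values in view. Their fourth-block neighbours lay between 2277.5 and 8721 nt upstream.

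First-block clusters also faced the fourth block from upstream. Of the 24 within 1000 nt, 22 had it downstream (91.7%, 73.00 to 98.97; adjusted Fisher's exact p = 0.0257 against the ninth block), and of 249 within 10000 nt, 237. The order was thus largely shared by the 2 blocks, while a nearby fourth-block cluster was far more frequent in the ninth. Toward the first block, the ninth block showed a weaker lean the other way. Within 1000 nt, 6 of 12 ninth-block clusters had the nearest first-block cluster downstream. Within 100000 nt it was 77 of 230 (33.5%, 27.4 to 39.98). Of 89 ninth-block clusters with a first-block cluster within 10000 nt, 34 had it downstream and 55 upstream (38.2% downstream, 28.1 to 49.1; adjusted Fisher's exact p = 4.18e-38 against the share for the fourth block). Both shares come from the ninth-block clusters, and a cluster with both kinds of neighbour enters both. The test ignores that pairing and treats the groups as independent.

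In 6 places, reads of a ninth-block cluster and of a fourth-block cluster shared bases, and in all 6 the fourth-block cluster was the downstream one. On chromosome 13, the cluster of 14 reads met one of 105 reads at chr13:34166214-34166315, with 9 shared bases and 27 nt between the nearest crosslinks. At chr11:50014238-50014297, minus strand, 4 reads shared 27 bases with a cluster of 60 reads. At chr10:57236924-57236991, minus strand, 5 reads shared 34 bases with a cluster of 20 reads. The nearest crosslinks of the 6 pairs were between 23 and 41 nt apart. The pairs named were also chosen after their values were seen.

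Clusters close to the fourth block were the deeper ones. With a fourth-block cluster within 1000 nt, 51 of 123 ninth-block clusters held 2 reads (41.5%, 32.7 to 50.7), against 348 of 540 without (64.4%, 60.2 to 68.5; adjusted Fisher's exact p = 4.68e-06). At least 5 reads were held by 26.02% of the 123 (18.5 to 34.7), by 11.7% of the 162 clusters at 1000 to 10000 nt (7.21 to 17.7) and by 4.23% of the 378 farther away or without one (2.44 to 6.78). The means were 4.94, 2.93 and 2.52 reads. Of the 10 highest clusters, 9 had a fourth-block cluster within 1000 nt downstream, and that on chromosome 11 had one of 134 reads at 8430 nt. The 123 clusters were not biased in strand, with 61 on the plus strand (49.6%, 40.5 to 58.8).

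The downstream neighbour was usually deeper than the ninth-block cluster itself, but fourth-block clusters were deeper in general. They had a mean of 9.65 reads, against 3.07 in the ninth block. Among the 123, with 114 distinct neighbours, the neighbour held more reads in 101, fewer in 14 and as many in 8. Its median was 9 reads, against 4 over all 4982 fourth-block clusters. The exceptions included high clusters of the ninth block. That of 15 reads on chromosome 16 had a fourth-block neighbour of 2 reads at 128 nt, and that of 10 reads on chromosome 18 one of 4 reads at 706 nt. The amount of each RNA in the cells was not measured in these libraries, and its part in these depths was not tested.

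**Figure D4:**
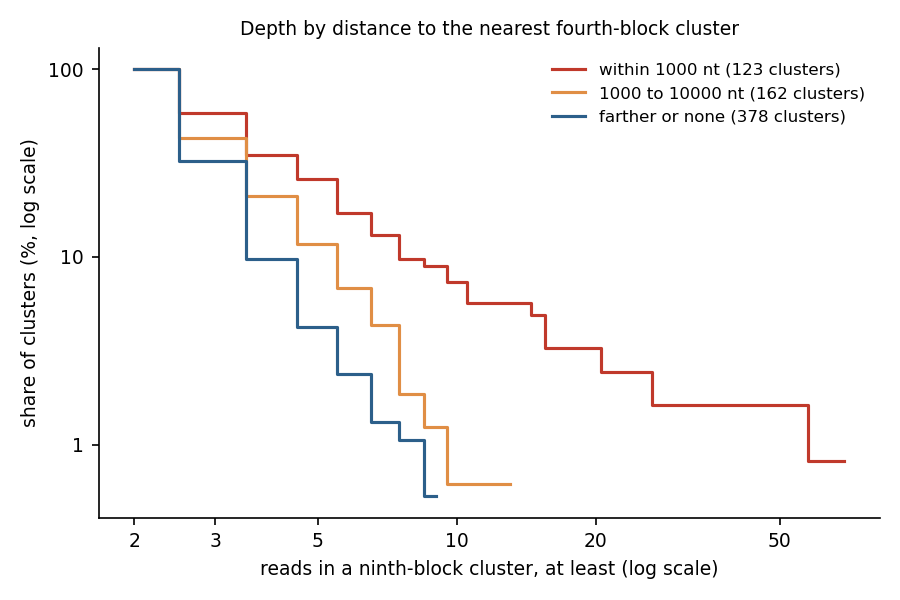
Share of ninth-block clusters (%, vertical axis, log scale) that held at least the number of reads on the horizontal axis (log scale), by distance to the nearest same-strand fourth-block cluster. The line for 123 clusters within 1000 nt stays above the others, and clusters farther than 10000 nt or without one reach at most 9 reads.

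Over the genome, ninth-block clusters were found on 20 of the 21 chromosomes with anti-Rbfox1 reads, from 14 clusters on chromosome 18 to 60 on chromosome 11. The mitochondrial chromosome held 0, which allows up to 0.452%. The share of clusters in the other blocks lay inside the exact interval of the ninth-block share on 17 chromosomes. Chromosomes 7 and 17 stood above that of the other blocks, and chromosomes 8 and 18 below it. Chromosome 7 had 58 clusters (8.75%, 6.71 to 11.2) against 5.21% in the other blocks. It also held 13.2% of the ninth-block reads, and 8.03% without its 3 highest clusters. Chromosome 17 had 5.28% of the clusters, against 3.67% in the other blocks, and, with its cluster of 57 reads, 8.07% of the reads. Chromosome 8 had 2.87% of the clusters against 4.49%, and chromosome 18 had 2.11% against 3.60%. These chromosome shares were not tested.

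The control block was too small for most comparisons. The anti-Rbfox1 ninth block held 53.5 times as many reads (38.8 to 75.8) and 44.2 times as many clusters (26.6 to 79.4). The number of reads before deposit was not used here, so these ratios do not measure recovered RNA. Between the whole libraries the read ratio was 113.9 and the cluster ratio 43.5 (38.2 to 49.8). By clusters the ninth block was thus near the ratio of the whole libraries. The read ratio was 32.8 for the first block and 259.8 for the fourth, each against its own control partner. Clusters of 2 reads made up 9 of 15 control clusters (60.0%, 32.3 to 83.7), and the highest held 4 reads. The wide interval leaves room for a difference from the 60.2% of the ninth block in either direction (adjusted Fisher's exact p = 1). The direction also depended on the counting. By distinct positions the shares were 68.3% in the ninth block and 93.3% in the control block (Fisher's exact p = 0.0461, unadjusted). The difference was -18.8 points with a joining distance of 10 nt and -27.4 points with 1 read kept per leftmost and per rightmost base.

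The control clusters differed from the ninth block in fine shape, while their strand share did not pass the test. Of the control clusters 5 of 15 were on the plus strand (33.3%, 11.8 to 61.6; adjusted Fisher's exact p = 0.243 against the ninth block). By reads the shares were 31.6% and 49.7% (Fisher's exact p = 0.0324, unadjusted), but reads of 1 cluster are not independent. Among clusters of 2 reads, the pair had a common 3′ end and neighbouring crosslinks, 1 nt apart, in 7 of 9 control clusters (77.8%, 39.99 to 97.2). In the ninth block this was the case in 65 of 399 (16.3%, 12.8 to 20.3; adjusted Fisher's exact p = 0.000194). Such pairs made up 9.88% in the fourth block (adjusted Fisher's exact p = 0.00132). Over all blocks they were 98 of 171 in the control library (57.3%, 49.5 to 64.8) and 1054 of 4957 in the anti-Rbfox1 library (21.3%, 20.1 to 22.4). These pooled shares include blocks, among them the first of each library, in which no 2 reads shared a leftmost base. In the third control block, where reads did share one, such pairs were 33 of 43 (76.7%, 61.4 to 88.2), against the 9.88% of the fourth. That pair of blocks was not tested. The contrast was thus not confined to the control block and the ninth block. The first block could not be compared alike, since no 2 of its reads shared a leftmost base, which is the 3′ end on the minus strand. On the plus strand alone such pairs were 3 of 3 in the control block, 42 of 213 in the ninth (19.7%, 14.6 to 25.7), 9.77% in the fourth (adjusted Fisher's exact p = 0.00117 over the 9 added tests) and 40.5% in the first. There, no 2 first-block reads could share a crosslink, so that value is given without a test.

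Only 1 ninth-block cluster met control reads, on the plus strand of chromosome 10. There 3 anti-Rbfox1 reads at chr10:80641944-80641968 overlapped 2 control reads at chr10:80641942-80641978. The overlap was thus 2 of 38 reads of the control block (5.26%, 0.644 to 17.7). Since the match of the blocks rests on these reads, the share is a description and no test of it. Of the first control block, 19.7% of reads overlapped the first anti-Rbfox1 block (15.4 to 24.6). Of the third control block, 38.4% overlapped the fourth (31.3 to 45.8). Another control cluster of 2 reads, chr2:121131488-121131511 on the plus strand, had a ninth-block cluster of 6 reads 207.5 nt upstream. The highest control clusters held 4 reads each, at chr3:129710405-129710433 and chr9:108008656-108008674, both on the minus strand. The latter had a ninth-block cluster of 2 reads 516.5 nt upstream, and the former none within 100000 nt. The next, with 3 reads at chr19:55698379-55698424 on the plus strand, had none there either, but a fourth-block cluster of 6 reads 205.5 nt downstream. Of the control clusters, 4 had a fourth-block cluster within 10000 nt, in all 4 downstream, too few to compare with the ninth block.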

How the data were processed

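The data were 2 deposited read lists, 1 per antibody. The submitters' processing notes name the aligner Bowtie and mm9. The sources used here give no versions, filters or handling of copies. The deposited values are positions of single reads: first base, last base and a position that lay 1 nt upstream of the 5′ end in 2033 of 2033 ninth-block and 38 of 38 control-block reads, taken as the crosslink. No ninth-block reads shared start, end and strand.

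Blocks, clusters (20 nt) and stretches (1000 nt) were computed in Python 3.11.15 with scipy 1.17.1, pandas 2.3.3, numpy 2.4.6 and, for plots, matplotlib 3.10.9. Clusters were built within blocks. Neighbour distances run between midpoints. Overlap meant at least 1 shared base on 1 strand. Intervals are Clopper-Pearson at 95%. Tests are two-sided Fisher's exact tests. A count of 0 was given a limit of 3 counts. Cluster building and the direction of neighbours were tested on simulated reads, and block assignment and Fisher's test on fixed inputs. The other steps were not tested in this way. Named regions are the 10 clusters and 5 stretches with most reads, the control clusters overlapping the block, and the 3 highest control clusters. The block, the tests and the regions were chosen with earlier results of these data known. GRCm38 tables were not used for coordinates, since reads lay beyond the last annotated gene on 6 of 21 chromosomes.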

Additional observations from a re-analysis of the deposited data

Results flagged for a closer look

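Read names hold the tile of the flow cell each read came from, a value outside the comparisons. In the ninth block 83.1% of 2033 reads (81.4 to 84.7) came from the first 16 of 96 tiles, against 20 of 38 reads of the control block (52.6%, 35.8 to 69.02; Fisher's exact p = 1.73e-05). The other anti-Rbfox1 blocks stood at 81.2% and the other control blocks at 55.0% (292 of 531 reads, 50.6 to 59.3). No ninth-block reads shared start, end and strand, and the shares describe the reads as deposited. The measure was picked with the read names in view.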

How the results depend on the processing

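Of 39 alternative values, 30 left a call or value in place and 4 turned a direction. The unadjusted p came below 0.05 in 3 and was no longer below it in 2, of which 1 each also turned direction, and 2 others moved beyond their interval. The difference of 0.181 percentage points from the control block in clusters of 2 reads became -18.8 with a joining distance of 10 nt (Fisher's exact p = 0.187), -27.4 with 1 read per leftmost and per rightmost base (exact p = 0.197) and -25.01 by distinct positions (exact p = 0.0461). The joining distance of 10 nt kept clusters of 1 read in the shares, whereas 1 read per end dropped clusters of fewer than 2 positions. The plus-strand difference from the control block, 18.6 points, was 18.2 by reads (exact p = 0.0324) and 18.4 by reads without the 2 highest clusters (exact p = 0.0320). That from the other blocks, -5.26 points, was -2.38 among clusters of at least 3 reads (Fisher's exact p = 0.487) and 0.574 with 1 read per leftmost and per rightmost base. The 10 highest clusters held 6.94% of the distinct positions, against 12.2% of the reads. The downstream share fell to 94.2% within 100000 nt. The cause was not tested, except that wider distances change a value by construction. No paired analysis was possible because there was a single library for each antibody. The alternatives for the sequence element and for transcript regions were not run. Settings by distance to the fourth block, by 1 cluster per neighbour, without the 2 highest clusters and, for cluster size, with 1 read per end, the comparisons with the seventh and the eleventh blocks and those on the plus strand alone were chosen after the data were seen.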

Other observations

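A block of 85 clusters, the seventh, lay on the other side of the ninth. Of 15 ninth-block clusters with a seventh-block cluster within 10000 nt on the same strand, 14 had it upstream (1 downstream, 6.67%, 0.169 to 31.9), at a median of 2005 nt. Within 1000 nt it was 5 of 5. Seen from the seventh block, 10 of 11 nearest ninth-block clusters within 10000 nt lay downstream, and 19 of 21 nearest fourth-block clusters did (90.5%, 69.6 to 98.8). The numbers are small and were singled out after the values were seen.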
